A study of Mus musculus with 24 samples.

Results

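The Period genes Per1, Per2 and Per3 encode circadian repressors, and the sites of the nuclear receptor Rev-erbα around them were read from deposited binding maps of mouse tissues. Members were chosen by name, and every binding site from 20 kb upstream to 20 kb downstream of each gene body was taken, whatever its height. The windows of these 3 of 22350 protein-coding genes held 5 of 9016 peaks in epididymal white adipose tissue (eWAT), 8 of 10687 peaks in brain and 150 of 245360 ChIP-exo borders in liver. Out of 16 groups with 24 samples, 3 groups of Rev-erbα immunoprecipitations were used: eWAT by ChIP-seq in 2 libraries, the ventral tegmental area (brain) by ChIP-seq in 1 library, and liver by ChIP-exo in 2 libraries. All 3 came from wild-type C57BL/6J mice at zeitgeber time 10, that is 10 h after lights on; ages were not given in the sources used here. No agent or allele was given for these mice. The ventral tegmental area is a small midbrain region that holds neurons and glia, and eWAT holds stromal, immune and endothelial cells beside adipocytes, so that a list is a mixture over the cell types of its tissue. The inputs, the mutants and the liver ChIP-seq were not analysed here.

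PER proteins join the cryptochromes in the complex that represses CLOCK and BMAL1, the activators that bind E-boxes in the Per genes. Period promoters are also known to carry D-boxes, the sites of the PAR bZIP activators DBP, TEF and HLF and of the repressor NFIL3. Rev-erbα, which represses Arntl (the gene of BMAL1), is best known to bind a half-site with an AT-rich stretch before it, the RORE, or a pair of half-sites, the RevDR2; it can also be recovered at DNA that other proteins contact. PER1 and PER2 are required for a stable rhythm in mice, whereas loss of PER3 has a milder effect. Since ChIP recovers DNA crosslinked to Rev-erbα or to proteins attached to it, a recovered site does not show which protein touched the DNA.

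Each group was deposited as 1 list, so no spread between replicates could be computed and the read depth was unknown. Every value below describes these lists, and no test between groups was made. Each peak was 150 bp wide and carried the authors' score, compared here only within a list by its rank (rank 1 is the highest; tied peaks share the better rank). The scores were whole multiples of a step, 1.013 in eWAT (8998 of 9016 peaks within 0.05 of a multiple) and 3.636 in brain (all 10687 peaks). If a step stands for 1 read, an exact Poisson interval of the number of steps covers counting error only; all intervals below are of this kind, at 95%. Borders are the positions at which exonuclease digestion stopped on the plus or the minus strand, each with a deposited signal (0.0602 to 343.3 over the list, median 0.471). Coordinates are those of mm9, with GENCODE vM1 gene models. As a check of the tissue labels, adipocyte markers had an eWAT peak in 7 of 7 windows and a brain peak in 5 of 7. Neuronal markers had an eWAT peak in 1 and a brain peak in 3 of 4 windows found, glial markers in 1 and 3 of 5, and markers of macrophages and endothelium in 3 and 3 of 5. Dopamine neuron markers, the defining ones of this brain region, had a peak in 0 of 4 windows in either list, and hepatocyte markers had an eWAT peak in 2 of 5 and a brain peak in 0. A liver border was present in every marker window found, whatever the cell type. Over all protein-coding genes, 28.7% had an eWAT peak in such a window, 41.5% a brain peak and 87.7% a liver border. The marker windows were few, so the check of the labels is weak. Binding near a marker is not its expression, so these counts do not measure cell content.

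The sequences that carry the results are those under the highest peaks and between the strongest borders, printed from the plus strand of mm9. In the Per1 peak upstream of the first start (chr11:68908297-68908446, the eWAT call), capitals mark a forkhead site, the sequence bound by FOX proteins such as FOXO1 and FOXA2, and, downstream of it, an E-box. In the Per1 peak inside an intron (chr11:68912225-68912374, the eWAT call), capitals mark an E-box. The 36 bases between borders nearer to the Per1 start (chr11:68908550-68908585) lay outside the peaks and hold another E-box in capitals. The Per2 stretch (chr1:93355908-93356051) is the eWAT peak at the start without its transcribed end, with a D-box in capitals. The Per3 stretch (chr4:150418895-150419009) joins the end of the brain peak to the beginning of the eWAT peak, with 2 D-boxes in capitals.
Per1 upstream peak: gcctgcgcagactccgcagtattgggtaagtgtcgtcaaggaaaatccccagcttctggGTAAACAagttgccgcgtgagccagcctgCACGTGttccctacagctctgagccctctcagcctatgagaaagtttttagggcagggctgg
Per1 intronic peak: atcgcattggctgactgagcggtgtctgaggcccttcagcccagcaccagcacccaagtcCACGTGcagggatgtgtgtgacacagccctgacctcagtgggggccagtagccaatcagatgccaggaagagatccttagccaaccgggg
Per1 proximal E-box: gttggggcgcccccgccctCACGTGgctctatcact
Per2 start peak: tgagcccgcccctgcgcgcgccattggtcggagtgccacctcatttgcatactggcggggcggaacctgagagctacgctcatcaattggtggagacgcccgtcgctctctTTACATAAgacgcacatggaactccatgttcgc
Per3 upstream stretch: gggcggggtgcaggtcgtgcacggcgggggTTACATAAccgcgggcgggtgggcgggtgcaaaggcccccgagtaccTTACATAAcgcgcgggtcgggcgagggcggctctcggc
The E-box was searched as CACGTG, the D-box as TTATGTAA or TTACGTAA, the half-site as AGGTCA and the forkhead site as GTAAACA, all on both strands. The D-boxes above read TTACATAA on the plus strand, so that all 3 lie in the same orientation, TTATGTAA on the minus strand, which is the sense strand of Per2 and of Per3.

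Per1, a gene of 14744 bp on the plus strand of chromosome 11 (chr11:68908719-68923462) with 6 annotated transcript starts, held 2 eWAT peaks, 4 brain peaks and 58 liver borders in its window. The peak upstream of the first start scored 215.8 in eWAT, where it ranked 5, and 338.2 in brain, where it ranked 9. In steps these were 213 (interval 185 to 244) in eWAT and 93 (75.1 to 114) in brain. The calls overlapped by 142 of 150 bp with centres 8 bp apart, 347 bp (eWAT) and 355 bp (brain) upstream of the first start. Per1 was thus among the highest-ranked sites of both tissues at nearly one position. The window of Per1 also holds the genes Vamp2 (a synaptic vesicle SNARE protein), Hes7 (a repressor of the somite clock) and Aloxe3 (an epidermal lipoxygenase).

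The Per1 intronic peak lay 150 bp (eWAT) and 129 bp (brain) upstream of the second annotated start, chr11:68912450. It scored 127.6 in eWAT (rank 28, 126 steps, 105 to 150) and 141.8 in brain (rank 55, 39 steps, 27.7 to 53.3), with an overlap of 129 bp. In both tissues it was lower than the upstream peak of the same gene, and the intervals of the step numbers did not overlap in either. In brain and not in eWAT, a peak was also called at chr11:68913485-68913634, 94 bp upstream of a later Per1 start, with a score of 69.1 (rank 387, 19 steps, 11.4 to 29.7). The remaining brain peak was a low call at chr11:68938887-68939036 with a score of 25.5 (rank 5169, 7 steps, 2.81 to 14.4), a score that 1816 brain peaks share. It lay 436 bp upstream of the start of Aloxe3 and not near a start of Per1. Whether these 2 sites are bound in eWAT below the authors' threshold could not be read from the list.

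Per2, 43347 bp on the minus strand of chromosome 1 (chr1:93312561-93355907), held 2 eWAT peaks, 3 brain peaks and 71 liver borders. Its highest peak lay across the start in eWAT, where the score was 210.7 (rank 6, 208 steps, 181 to 238), and reached 381.8 in brain (rank 6, 105 steps, 85.9 to 127). The calls overlapped by 132 bp with centres 18 bp apart, 70 bp (eWAT) and 88 bp (brain) upstream of the start. The step intervals of this peak and of the upstream Per1 peak overlapped in eWAT and in brain. The other Per2 peaks were intronic, and none was called in both tissues. In eWAT there was 1, in the top 23.0% of the list, at chr1:93334214-93334363, with a score of 22.3 (rank 1878, 22 steps, 13.8 to 33.3). In brain there were 2, low in the list, at chr1:93332937-93333086 and chr1:93342756-93342905, both with a score of 21.8 (rank 6985, 6 steps, 2.20 to 13.1), a score that 2984 brain peaks share. The neighbours of Per2 in its window are Hes6, a bHLH factor of neural differentiation, and Ilkap, a phosphatase.

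Per3, 41014 bp on the minus strand of chromosome 4 (chr4:150377761-150418774), had 1 peak in each tissue and 21 liver borders, and differed from the other Period genes in 2 ways. Its eWAT peak, chr4:150418971-150419120, scored 27.4 (rank 1205, 27 steps, 17.8 to 39.3), whereas its brain peak, chr4:150418793-150418942, scored 189.1 (rank 25, 52 steps, 38.8 to 68.2). The brain peak was thus in the top 0.243% of its list and the eWAT peak in the top 14.4%, while the highest peak of Per1 was in the top 0.0936% of the brain and 0.0555% of the eWAT list and that of Per2 in the top 0.0561% and 0.0776%; no test of that difference between tissues was possible with 1 list each. The calls also did not overlap: their centres lay 178 bp apart, with a gap of 28 bp, the eWAT peak 272 bp and the brain peak 94 bp upstream of the start. The window holds Uts2 (the peptide urotensin), Vamp3 (a SNARE protein) and Camta1 (a transcription activator) as well.

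**Figure D1:**
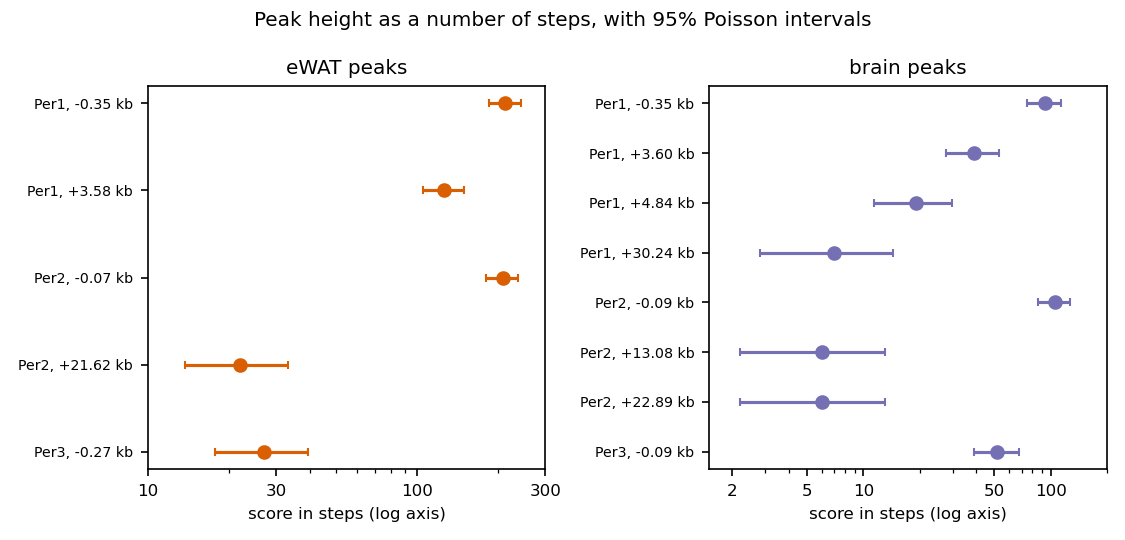
Score of each peak in the Per windows as a number of steps (points, log axis) with its 95% exact Poisson interval (bars, counting error only), eWAT left and brain right; rows give the gene and the distance of the peak centre from the first start. The start peaks of Per1 (213 and 93 steps) and Per2 (208 and 105) are highest in both tissues, whereas Per3 has 27 steps in eWAT and 52 in brain.

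All 3 Period genes had sites in both tissues, whereas a window drawn in the same way held an eWAT peak for 28.7% of all protein-coding genes and a brain peak for 41.5%. Counts were higher for Per1 than for Per3: 9.41% of genes had at least as many eWAT peaks as Per1 (2) and 2.68% at least as many brain peaks (4). For Per2 these shares were 9.41% (2 eWAT peaks) and 7.00% (3 brain peaks), and for Per3, with 1 peak each, they equal the shares of genes with any peak. An eWAT peak overlapping a brain peak was found for Per1 (2) and Per2 (1), against 3.88% of genes with at least 1, and for Per3 there was none. Thus 3 of the 5 eWAT peaks and 3 of the 8 brain peaks were shared, against 7.83% of all eWAT peaks and 6.61% of all brain peaks. The shared Per peaks stood high in their lists (rank 28 or better in eWAT, 55 or better in brain). The share among peaks of like rank was not computed. Long genes have wider windows, and the windows measured 54744 bp for Per1, 83347 bp for Per2 and 81014 bp for Per3.

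In liver, the strongest borders lay at the starts, while most borders did not. Per1 had 58 borders (28 plus, 30 minus) with a median signal of 0.773 and a maximum of 15.80. Per2 had 71 (36 plus, 35 minus) with a median of 0.731 and a maximum of 10.76. Per3 had 21 (12 plus, 9 minus) with a median of 0.479, close to that of the list (0.471), and a maximum of 5.88. At least 1 border was present in 87.7% of genes, and a median gene had 10; as many as Per1 had were found in 2.30% of genes, as many as Per2 in 1.16% and as many as Per3 in 24.8%. Per2 did not lead Per1 under each setting: with 50 kb on each side Per2 had 81 borders, Per1 87 and Per3 25, and with deposited p-values of at most 0.01 they had 2, 8 and 4. The top 1% of the list, 2453 borders with a signal of 2.75 or more, included 11 borders of Per1, 4 of Per2 and 3 of Per3. Of these, 10, 4 and 3 lay within 1 kb of a start of their own gene. Of all borders the same was true of 18 of 58 at Per1, 6 of 71 at Per2 and 7 of 21 at Per3, and 44 of the Per2 borders lay in its gene body. Per1 has 6 annotated starts, which widens the reach of this rule, and 7 of its borders lay within 500 bp of the first. How many top 1% borders of the whole list lie near a start was not computed. By highest border the order was Per1 (rank 40), Per2 (rank 110) and Per3 (rank 437). The best eWAT peaks stood in the same order, and in brain Per2 stood above Per1. In both tissues the step intervals of the highest Per1 and Per2 peaks overlapped, so the order of these peaks is within counting error.

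**Figure D2:**
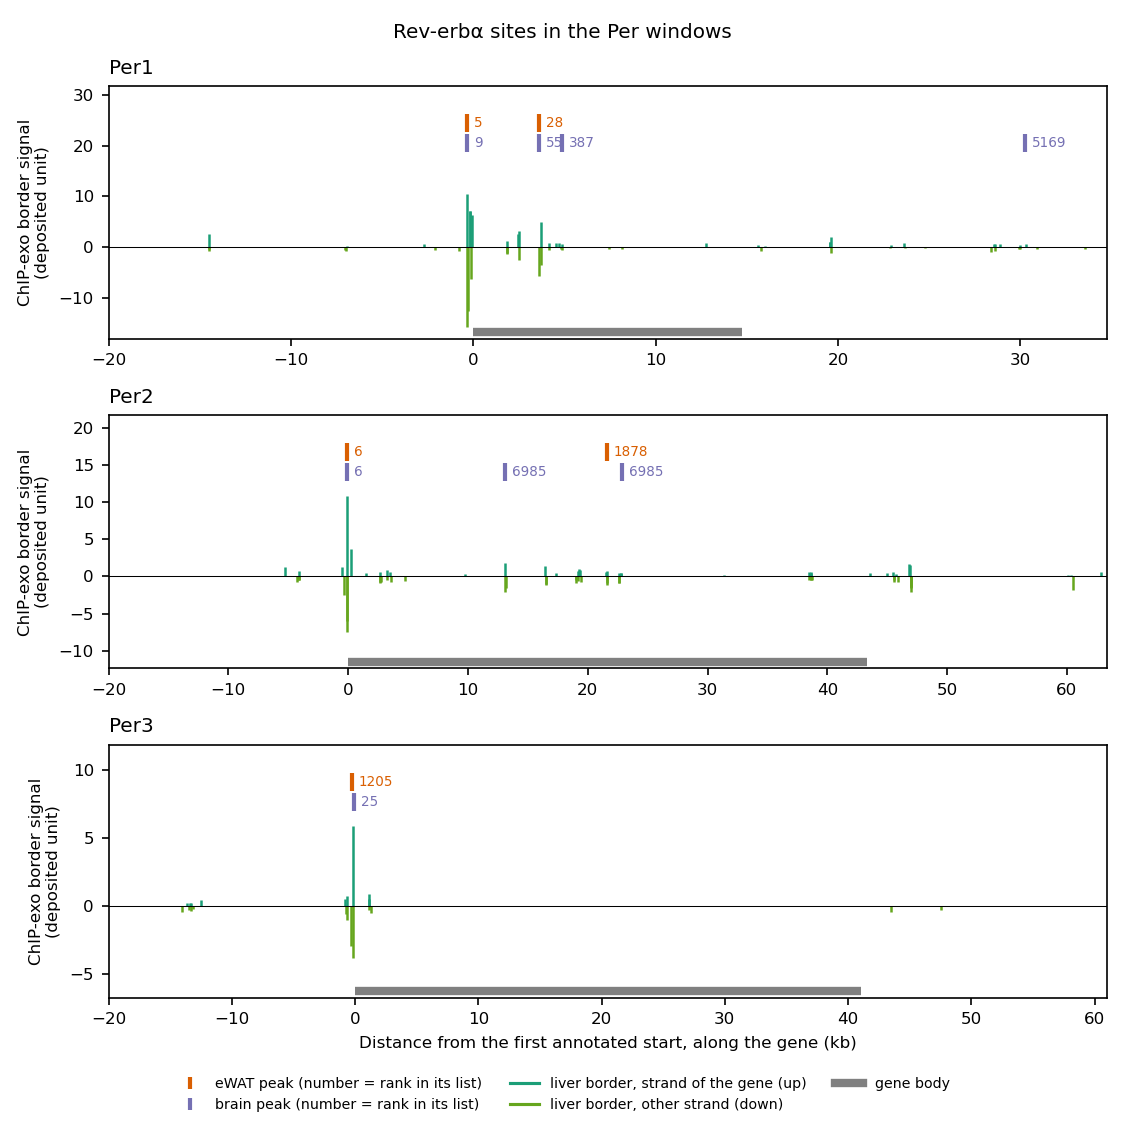
Liver ChIP-exo border signal (vertical lines, deposited unit, up for the strand of the gene and down for the other) along each Per window by distance from the first start in kb, with eWAT and brain peaks as marks labelled by rank and the gene body as a grey bar. The tallest borders (15.80 at Per1, 10.76 at Per2 and 5.88 at Per3) lie within 500 bp upstream of the first start, under or beside the peaks of the other tissues.

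Liver borders lay near the peaks of the other tissues at every Per site. With 100 bp as the limit from the peak centre, 5 of 5 eWAT peaks and 8 of 8 brain peaks of the windows had a border, against 30% of all eWAT peaks and 36.4% of all brain peaks. That limit reaches past the ends of a 150 bp peak. The borders of the Per3 brain peak, the brain peak near Aloxe3 and the Per2 brain peak at chr1:93332937-93333086 all lay outside the call. Within 50 bp of the centre, 5 of 5 eWAT and 5 of 8 brain peaks had a border. With borders of a deposited p-value of at most 0.01, 0 of 5 and 1 of 8 had one within 100 bp. Shares over all peaks were not computed at these limits, nor shares among peaks of like rank at any limit. At the Per1 upstream peak, 3 borders were found. They had signals of 10.37 on the plus strand (chr11:68908348), 15.80 on the minus strand (chr11:68908370) and 12.74 on the minus strand (chr11:68908401). These were the 3 strongest borders of Per1. At the Per1 intronic peak a minus border with a signal of 5.68 lay at chr11:68912300, the central base of the eWAT peak. A plus border with 4.85 (chr11:68912416) lay 95 bp from the centre of the brain call, outside both calls. At the Per2 start there were plus borders with signals of 6.07 (chr1:93355998) and 7.50 (chr1:93356008) and a minus border with 10.76 (chr1:93356037). At Per3 a minus border with 5.88 (chr4:150418943) and a plus border with 3.83 (chr4:150418961) lay between the centres of the peaks, and a further plus border with 2.98 (chr4:150419085) inside the eWAT peak. Borders at the other peaks had lower signals: 0.492 to 0.675 at the Per1 peak called in brain alone, 0.557 at the one near Aloxe3, 0.565 to 1.19 at the intronic Per2 eWAT peak, and 0.409 to 0.487 and 1.56 to 2.16 at the intronic Per2 brain peaks. Thus the brain peak at chr1:93342756-93342905, among the lowest of its list, had the strongest borders of these.

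The borders also carried deposited p-values. A value of at most 0.01 was given for 14 of the 150 borders of the windows, against 32.6% of the whole list and 40.5% of its top 1%. The strongest border of each gene had 0.0231 (Per1), 0.0177 (Per2) and 0.0065 (Per3) in the authors' deposited list. How that p-value was computed is not given in the sources used here, so borders were ranked by signal.

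The high Per peaks held E-boxes, D-boxes and promoter boxes. An E-box was present in 2 of the 5 eWAT peaks and 2 of the 8 brain peaks, those of Per1 upstream and intronic, against 11.4% of all eWAT peaks and 8.17% of all brain peaks. A D-box was present in 2 of 5 and 2 of 8, the start peaks of Per2 and Per3, against 1.87% and 1.67%. The high peaks of Per1 thus held E-boxes, and those of Per2 and Per3 D-boxes. The CCAAT box, the NF-Y site of many promoters (CCAAT), was in more of them: 4 of 5 eWAT and 4 of 8 brain peaks, against 20.6% and 18.9% of the lists, in the peaks with an E-box or a D-box. The GC box, an SP1 site (GGGCGG), was in 2 of 5 and 4 of 8, against 3.72% and 20.8%. These include the start peaks of Per2 and Per3 in both tissues. The half-site occurred in 1 of 5 eWAT peaks and 2 of 8 brain peaks, against 19.0% and 11.7% of the lists. It stood in the intronic Per1 peak of both tissues and in the brain peak near Aloxe3. A RORE was found in 0 of 5 and 0 of 8 (3.46% and 2.16% of the lists), and a RevDR2 in 0 of 5 and 0 of 8 (0.189% and 0.0842%). With shares this low, most sets of so few peaks would hold neither, so the absence does not set the Per peaks apart. The E-prime-box, a weaker E-box with a T as its last base, was found in 0 of 5 and 0 of 8 as well (4.41% and 3.56%). So was the cAMP response element, TGACGTCA or its variant TGACGTAA, the CREB site known from the Per1 promoter (0.366% and 1.24% of the lists); it occurred 7 times in the windows, always outside peaks. Among them 1, in the Per3 window, had a liver border 5 to 20 bp outside it, at 18 bp. How often such elements of the genome have a border in that range was not computed. No RORE and no RevDR2 was found anywhere in the 3 windows, beside 167 half-sites; no match says only that these letters were not there. A shorter form of the RORE, added after the values were seen, occurred 3 times in the windows, of which 1 lay in the brain peak near Aloxe3 (chr11:68939008-68939037, the match in capitals on the minus strand).
Per1 window, peak near Aloxe3: ctggtccttgTGACCTATATcttggacacc
Among the 100 highest-scoring peaks of each list, to which the start peaks of Per1 and Per2 belong in both tissues, the E-box was present in 59% in eWAT and 35% in brain. The D-box was present in 4% and 9%, and the RORE in 7% and 8%.

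Around the E-boxes and D-boxes in Per peaks, the flanking liver borders lay 10 or 11 bp outside the box. A site counted as flanked where a plus border lay 5 to 20 bp before its first base or a minus border 5 to 20 bp after its last base, on the plus strand. This range was set after the values were seen. Both E-boxes in Per peaks were flanked, against 31.2% of the 1986 E-boxes in any eWAT or brain peak and 1.40% of E-boxes in the genome. Their minus borders lay 11 bp after the upstream E-box (chr11:68908385-68908390) and 10 bp after the intronic one (chr11:68912285-68912290). All 3 D-boxes in Per peaks were flanked, against 29.6% of the 345 D-boxes in any peak and 0.787% of D-boxes in the genome. The Per2 D-box (chr1:93356019-93356026) had a border on each side, 11 bp before and 11 bp after it. That was so for 11.3% of D-boxes in peaks (borders on both sides at any distance of the range). At Per3 the D-box in the brain peak (chr4:150418925-150418932) had its minus border 11 bp after it, and the D-box in the eWAT peak (chr4:150418972-150418979) its plus border 11 bp before it. Each Per3 D-box was thus flanked on the side that faces the other, and the peaks of the tissues each held 1 of them.

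The distances at the Per boxes were those most common over all peaks. Counted here were only plus borders before a site and minus borders after it, so borders inside a site or of the other orientation were left out. Within 60 bp of the D-boxes in peaks there were 222 such borders, 117 of them at 11 bp, and 60.4% were at 10 to 12 bp. Around E-boxes in peaks, 1718 borders counted in the same way were more scattered, with the mode at 10 bp (223 borders) and 26.7% at 10 to 12 bp. These totals include the Per sites, which add 4 borders at D-boxes and 2 at E-boxes within the 5 to 20 bp range. The libraries were from liver, whereas the peaks that set the sites were from eWAT and brain.

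**Figure D3:**
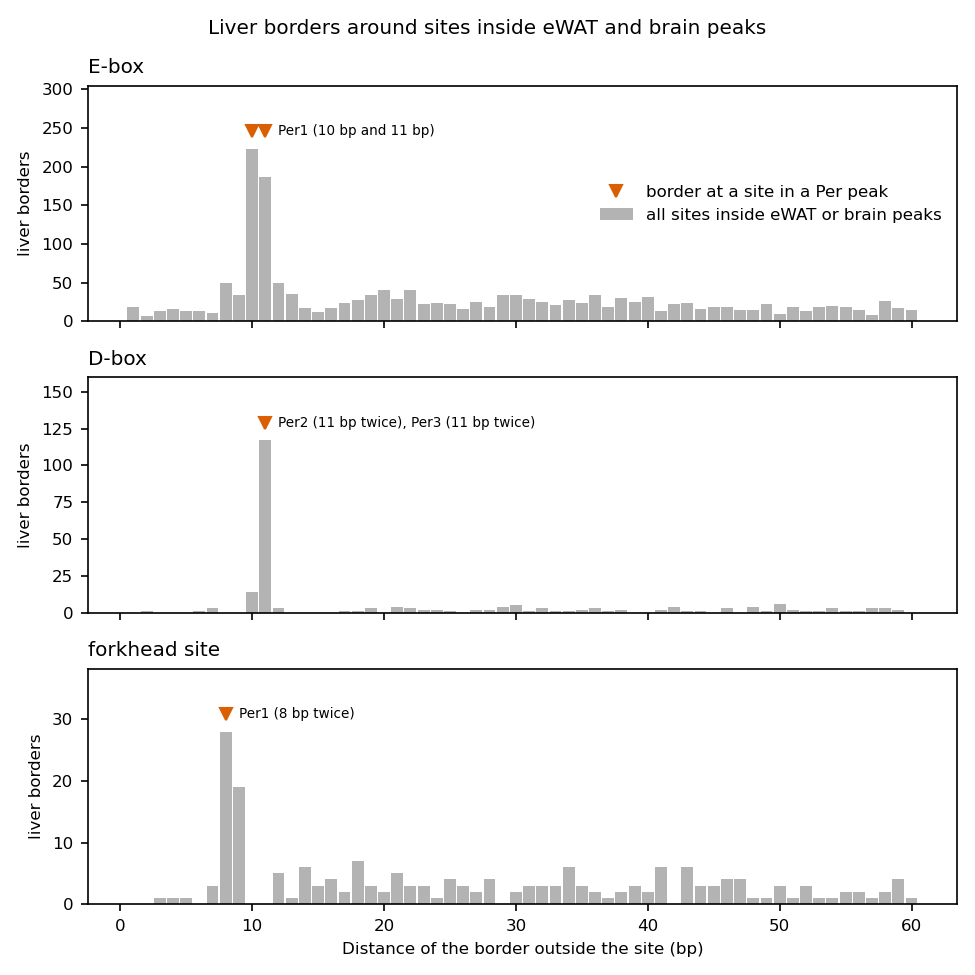
Number of liver borders (bars) by distance in bp outside E-boxes, D-boxes and forkhead sites that lie inside any eWAT or brain peak. Only plus borders before a site and minus borders after it are counted. Triangles mark the borders at such sites in Per peaks. The Per borders stand at 10 and 11 bp for the E-box, at 11 bp for the D-box (4 borders) and at 8 bp for the forkhead site (2 borders), on the most common distance or 1 bp from it.

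At the Per1 upstream peak the strongest pair of borders enclosed another sequence. Between chr11:68908348 and chr11:68908370, 22 bp apart with a mean signal of 13.1, lay the forkhead site GTAAACA (chr11:68908356-68908362), with a border 8 bp from each end. This motif was searched after that pair was seen. Within 60 bp of forkhead sites inside peaks, 8 bp was the most common distance (28 of 190 borders, plus borders before and minus borders after the site). Of such sites 16.8% were flanked, against 0.450% in the genome. The upstream Per1 peak was the only Per peak that held it (1 of 5 in eWAT and 1 of 8 in brain, where 2.17% and 1.97% of the lists did), which the choice of the motif fixed. The 25 others in the windows lay outside peaks. The upstream Per1 site thus had borders at the common distances from 2 boxes that lie 22 bases apart within 1 peak.

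Not all strong liver borders lay in a peak of the other tissues. Between the upstream peak and the first start of Per1, plus borders with signals of 7.13 (chr11:68908550) and 7.11 (chr11:68908556) faced a minus border with 6.41 (chr11:68908585). They enclosed the proximal E-box printed above (chr11:68908569-68908574), 19 bp and 13 bp before it and 11 bp after it. A lone plus border with 6.33 followed at chr11:68908655, 64 bp upstream of the start. An intronic E-box of Per1, chr11:68911176-68911181, had a plus border 11 bp before it with a signal of 2.48. Of the 40 E-boxes in the Per windows 5 were flanked and 2 lay in a peak; of the 19 D-boxes 5 were flanked and 3 lay in a peak. By gene, 4 of the 14 E-boxes of Per1, 1 of the 6 D-boxes of Per2 and 3 of the 9 D-boxes of Per3 were flanked, so most such boxes were not. Flanked E-boxes outside peaks were the 2 of Per1 just named and 1 downstream of Per2, in a coding exon of Hes6 (chr1:93308969-93308974). The one in Hes6 had a plus border 10 bp before it and a minus border 20 bp after it. Flanked D-boxes outside peaks were 1 in the Per1 window, 14495 bp upstream of the start and beyond Vamp2 (chr11:68894221-68894228), and another one of Per3 (chr4:150419437-150419444). The one beyond Vamp2 had a minus border 11 bp after it with a signal of 0.4145, below the list median of 0.471. The one of Per3 had a minus border 8 bp after it with a signal of 0.71. At 8 bp, 0 borders were counted around D-boxes in peaks. The E-prime-box CACGTT, a noncanonical E-box of the kind for which the Per2 promoter is known, was found at the start of Per2 (chr1:93355891-93355896) and was not flanked. In the windows it was 1 of 38 such sites, of which 2 were flanked. Of the 167 half-sites in the windows 4 were flanked, and of the 2 that lay in a peak 0 were. For neither motif was the flanked share over the genome or over all peaks computed.

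**Figure D4:**
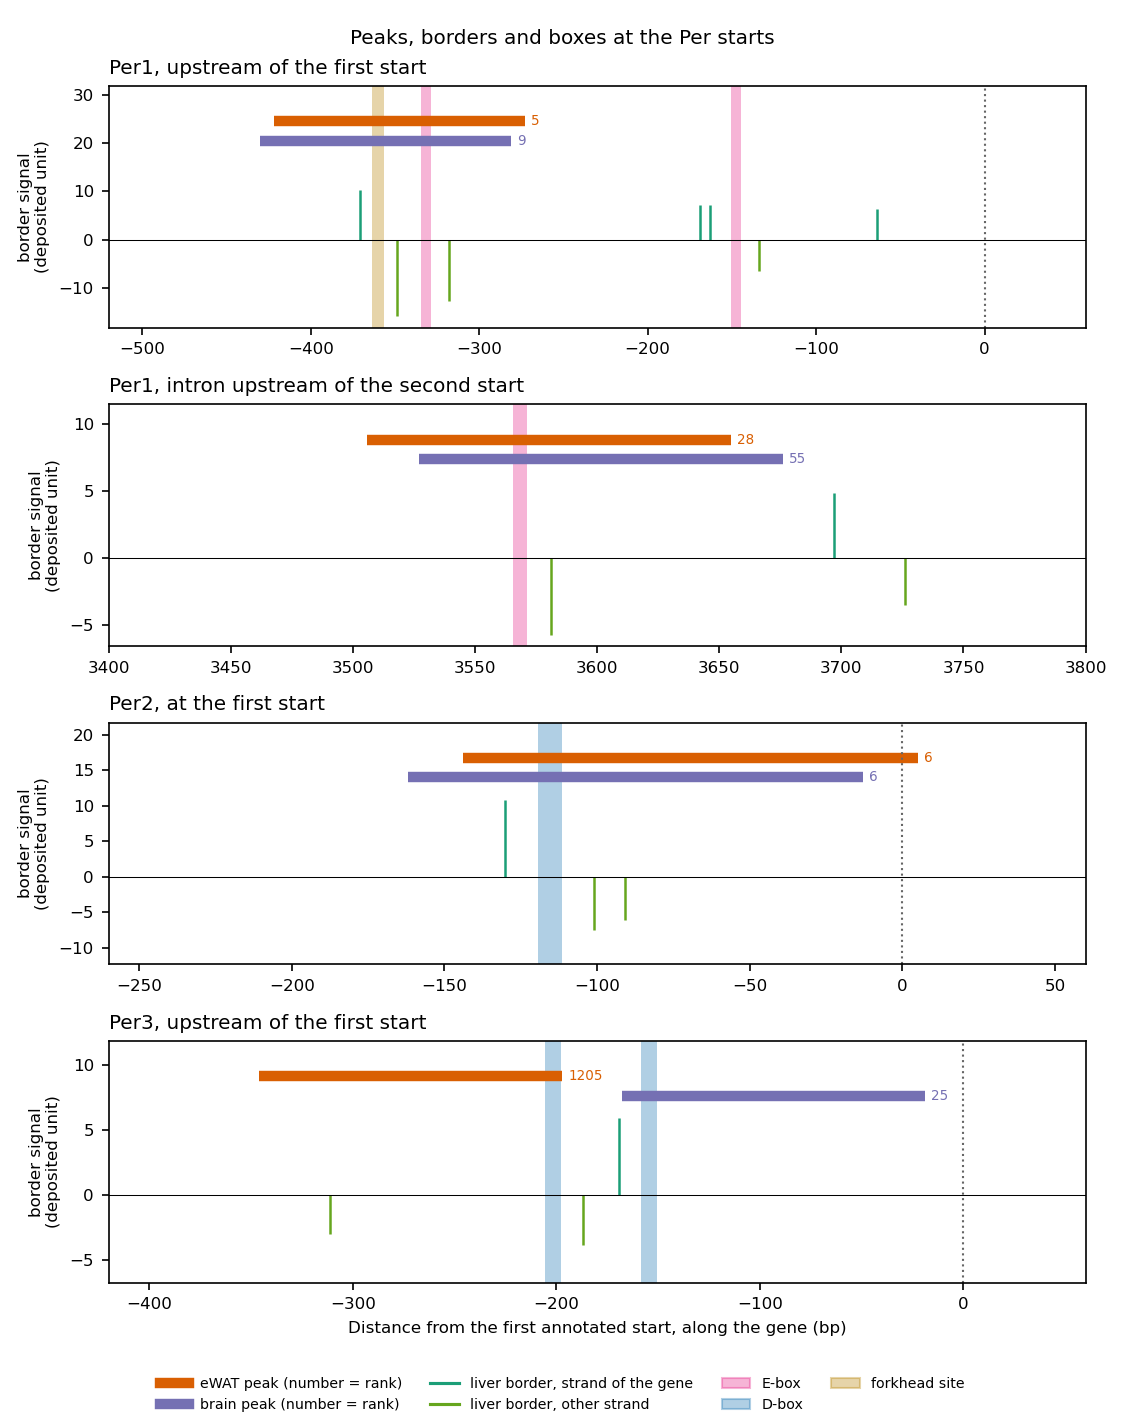
Peaks (horizontal bars, labelled by rank), liver borders (vertical lines, deposited signal, up for the strand of the gene and down for the other) and boxes (shaded) by distance in bp from the first start of each gene. The E-boxes and D-boxes shown each have a border at 10 or 11 bp, and the peaks of eWAT (rank 1205) and brain (rank 25) at Per3 hold 1 D-box each.

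Borders were counted as a pair where the nearest minus border after a plus border lay 5 to 60 bp further on. A protein bound between them gives that layout. Minus borders beyond the nearest were not paired with that plus border. A minus border could end pairs with more than 1 plus border, as at the Per2 start, so pairs are not counts of separate sites. Per2 had 16 pairs, Per1 had 10 and Per3 had 1, whereas 51.0% of genes had any and 26407 were found in all. That order rests on wide pairs: with spacings of 5 to 30 bp, Per2 had 7, Per1 had 8 and Per3 had 0. As many pairs as Per2 had were found in 0.264% of genes and as many as Per1 in 1.56%. Spacings ran from 12 to 35 bp at Per1 (median 28.5) and from 6 to 47 bp at Per2 (median 31.5), and the Per3 pair was 54 bp wide. A spacing of 29 bp, that of the pair around the Per2 D-box, was found in 5 of the 27 pairs, 3 of Per1 and 2 of Per2 (3.62% of all pairs). It was looked at because the Per2 D-box pair had it, so the count is a description; without that pair it was 4 of 26. Over all 29 bp pairs, the central 8 bases were a D-box or differed from one at 1 or 2 bases in 57.3% (547 of 955). The same was true of 2 of the 4 other Per pairs. The 30 bases of each are given with the central 8 in capitals, since it is there that they differ from or match the D-box.
Per2 start: cgtcgctctctTTACATAAgacgcacatgg
Per1 second-start pair: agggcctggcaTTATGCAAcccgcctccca
Per1 intronic pair: ttaacagctgaTTATGTCAgccgctgcgtg
Per2 intronic pair: gggcaattctgTTGTACAAgcagtgttggg
Per1 proximal pair: gcgcccccgccCTCACGTGgctctatcact
The Per2 start pair (chr1:93356008-93356037, mean signal 9.13) holds the D-box itself, with 0 mismatches. The pair before the second start of Per1 (chr11:68912416-68912445, mean signal 4.17) has 1 mismatch, as has the intronic pair upstream of it (chr11:68911200-68911229, mean signal 2.90). The intronic Per2 pair (chr1:93334307-93334336, mean signal 0.937), inside the intronic eWAT peak, has 3 mismatches, and the proximal Per1 pair (chr11:68908556-68908585, mean signal 6.76), which holds the E-box, has 7. Per1 thus had 2 liver sites of D-box-like sequence outside the peaks of the other tissues, 1 of them with its plus border 34 bp upstream of the second start.

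In the RefSeq promoters (GRCm38.p6, from 250 bases before to 50 after a start, 32851 sequences), the E-box was present in 7.15% and in 1 of 2 Per1 promoters. The D-box was present in 1.06% and in the 1 Per3 promoter. Per2 was not matched in that table.

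Per1 and Per2 ranked among the clock genes with the highest sites. Of 23 other clock genes, taken from textbook knowledge with earlier results of these data known, 19 had an eWAT peak, 20 a brain peak, 22 a liver border and 21 a border pair. An eWAT peak shared with brain was present at 14 of them. Over all protein-coding genes these 5 shares were 28.7%, 41.5%, 87.7%, 51.0% and 3.88%, so a liver border was common to most genes. The median best ranks of the 23 clock genes, over those with a site, were 86.0 in eWAT, 53.5 in brain and 810 among the borders. With genes that lack a site placed last they were 211, 130 and 1183. Per1 (5, 9 and 40) and Per2 (6, 6 and 110) stood above all 3 medians, and Per3 (1205, 25 and 437) above those of brain and liver and below that of eWAT, by either reckoning. In eWAT the genes ahead of Per1 on that list were Nr1d1 (rank 1), which encodes Rev-erbα, and Dbp (rank 3). In brain 5 were ahead of it, Nr1d1 (rank 1), Nr1d2 (rank 3), Dbp and Bhlhe41 (both rank 4) and Tef (rank 8), and Ciart was tied with it at rank 9. Among the liver borders Nr1d1 (rank 22) was ahead of it. The cryptochromes, the partners of PER in the repressor complex, had best ranks of 52, 130 and 2742 (Cry1) and 13, 14 and 256 (Cry2) in eWAT, brain and liver. The kinase genes of PER phosphorylation ranked lower: Csnk1d had no peak in either tissue, and Csnk1e had none in eWAT and rank 4034 in brain.

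**Figure D5:**
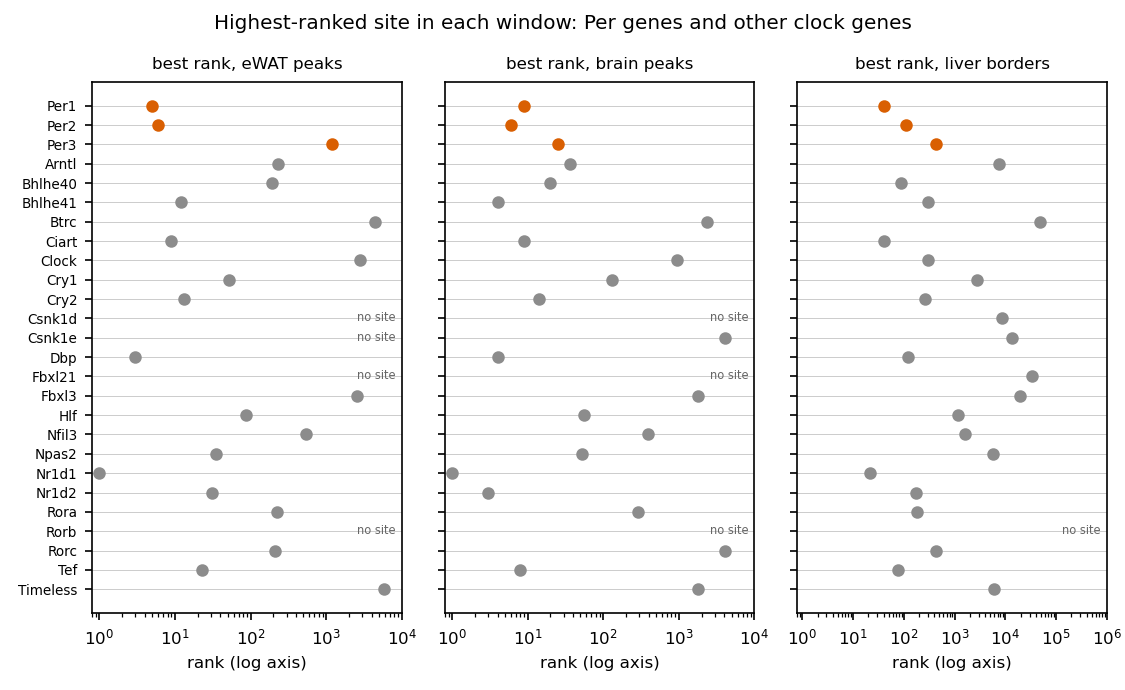
Rank of the highest site in each 20 kb window (log axes, low ranks at left) in eWAT, brain and liver for the Period genes (orange) and 23 other clock genes (grey); a gene with no site is written as such. Per1 and Per2 lie at ranks 5 and 6 in eWAT, and Per3 lies at rank 1205 in eWAT and 25 in brain.

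Likeness to each Period gene was measured over the 3 lists as the summed absolute difference in log10 of the best rank. The genes most like Per1 were Aph1a, BC028528 and C920021L13Rik, at a distance of 0.27 in common with Ciart, a clock repressor whose sites they share (best ranks 9, 9 and 41). Those most like Per2 were Car11, Dbp and Fam83e (0.51), which share the sites of Dbp, the D-box activator (3, 4 and 119). Those most like Per3 were Aven and Chrm5 (0.39), which also share their sites (1127, 30 and 841), and Fam100a (0.60). Likeness over 3 ranks, with genes that share a site tied, is a description of these lists.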

How the data were processed

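The deposited peak lists of Rev-erbα ChIP-seq in eWAT (2 libraries, 1 list) and brain (1 library) give a position and a score per peak, and the authors' ChIP-exo list of liver (2 libraries, 1 list) gives, per the file headers, a position, strand, signal and p-value per border. The submitters' processing notes name mm9, Bowtie 0.12.8 for ChIP-seq, Bowtie 1.1.1 for ChIP-exo and HOMER with no version. How peaks and borders were called, with which thresholds and pooling, is not given in the sources used here; another threshold would change how many low sites are listed. Chromatin was fixed with formaldehyde and sheared by sonication, per the labels' protocols. No deposited p-value was used to choose sites.

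Sites were placed by peak centre or border position in windows of 20 kb around gene bodies (GENCODE vM1). Shared peaks overlap by at least 1 bp, borders count within 100 bp of a centre, and pairs are 5 to 60 bp wide. Motifs were read on both strands of the mm9 sequence; C/EBP and ONECUT motifs and a direct repeat of half-sites were also searched and found in no Per peak. Analyses used Python 3.11.15 with pandas 2.3.3 and scipy 1.17.1, and were tested on simulated data. The members, gene lists and motifs were chosen with earlier results of these data known; the forkhead site, the short RORE, the 29 bp pairs and the flanking range were added after the values were seen. Named were all Per peaks, borders near them, the 5 highest borders of each gene and the 3 most alike genes; further borders around boxes were named after their values were seen. All columns used were mapped to a group.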

Additional observations from a re-analysis of the deposited data

How the results depend on the processing

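Windows of 10 and 50 kb left the eWAT count at 5, and gave 7 and 11 brain peaks and 123 and 193 liver borders, while the share of genes with an eWAT peak reached 43.3% at 50 kb. All 5 eWAT peaks and 5 of the 8 brain peaks scored above the median of their list, and 5 brain peaks had a border within 50 bp. With borders of a deposited p-value of at most 0.01, 14 borders were left, 0 of 5 eWAT peaks had one and 1 of 8 brain peaks did. The share of all peaks with such a border was not computed, so these counts cannot be set against the lists. Pairs of 5 to 30 bp numbered 15. Searched within 50 bp of the centre, 1 brain peak held a half-site, and with the shorter RORE 1 brain peak held it. For Per3, centres within 500 bp would count as shared, making 4 shared eWAT peaks in all. Likeness by number of sites named none of the same genes. With a range of 8 to 14 bp for the flanking border, the counts were 5 E-boxes and 5 D-boxes, as with 5 to 20 bp. No paired analysis was possible because each group was deposited as 1 list, and for the same reason no replicate could be left out. Depth is unknown, so a site missing from a list cannot be told from one under its threshold.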
